A study of Mus musculus with 3 samples.

Results

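The matrix metalloproteinase (Mmp), Timp and Adam8 genes were followed across 3 mouse lungs, each measured on 1 Affymetrix array. The members were chosen by name, as the probe sets whose single gene symbol in the authors' deposited tables was Mmp or Timp with a number, or Adam8. This gave 18 probe sets of 12 genes (8 Mmp genes, 3 Timp genes and Adam8), out of 2944 genes named in those tables. Each deposited table lists probe sets past 2-fold in its own comparison, so every member differed by that much somewhere in the authors' ratios, and members that differed less are not analysed here. The members nearest that limit, by the largest fold of either probe set in the authors' deposited tables, were Timp3 at 2.28-fold and Mmp9 at 2.36-fold.

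The first mouse was wild type and its lung was normal (wild type lung below). The second was a KA/KA-Lori-Ikkα mouse, from which lung squamous cell carcinoma and the tissue beside it were taken as 1 sample (tumour lung). The third had the genotype KA/KA-Lori-Ikkα with a treatment that depleted macrophages, and its lung showed some inflammation and no observed tumour (depleted lung). All 3 mice were 16 weeks old. IKKα is an NF-kB pathway kinase. As the strain is known in the field, KA/KA is a homozygous knock-in of a kinase-dead Ikkα, and Lori-Ikkα is a transgene driven by the loricrin promoter, which is active in the epidermis. The labels do not name the depleting agent or an untreated mutant lung without tumour, so treatment and absence of tumour cannot be told apart. Each group was 1 mouse on 1 array. There is therefore no error to give and no test, and every difference describes these arrays.

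Matrix metalloproteinases are secreted or membrane-bound zinc proteases that cut collagens, elastin and other matrix proteins. They are made as inactive proenzymes, and Timp proteins bind and block the active enzymes. In lung, Mmp12 is known as the elastase of macrophages, Mmp8 and Mmp9 are stored in neutrophil granules, and Mmp13 and Mmp14 are made by stromal and tumour cells during invasion. Adam8 is a related membrane protease of leukocytes that is also found in carcinomas.

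In the RefSeq annotation of GRCm38.p6, 4 of the 12 genes lie in 1 uninterrupted run of 10 Mmp genes on chromosome 9, in the order Mmp13, Mmp12, Mmp10 and Mmp8 with other Mmp genes between them. The promoter windows of these 4 neighbours are shown because 3 of them were highest in tumour lung, while Mmp8 was highest in depleted lung. Each window runs from 250 bases before to 50 bases after an annotated start and is taken from RefSeq, build GRCm38.p6, on the plus strand. They are chr9:7272264-7272563 for Mmp13, chr9:7347124-7347423 for the downstream of 2 windows of Mmp12, chr9:7502092-7502391 for Mmp10 and chr9:7558179-7558478 for Mmp8. Capitals mark matches to TGANTCA, the AP-1 motif, and to TATAAA, the TATA box, searched on both strands.
Mmp13: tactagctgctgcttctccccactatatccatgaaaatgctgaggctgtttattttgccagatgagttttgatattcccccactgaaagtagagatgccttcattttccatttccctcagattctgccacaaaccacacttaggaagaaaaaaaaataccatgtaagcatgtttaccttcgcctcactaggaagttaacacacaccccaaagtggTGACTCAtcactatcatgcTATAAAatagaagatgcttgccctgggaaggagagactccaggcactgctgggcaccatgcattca
Mmp12: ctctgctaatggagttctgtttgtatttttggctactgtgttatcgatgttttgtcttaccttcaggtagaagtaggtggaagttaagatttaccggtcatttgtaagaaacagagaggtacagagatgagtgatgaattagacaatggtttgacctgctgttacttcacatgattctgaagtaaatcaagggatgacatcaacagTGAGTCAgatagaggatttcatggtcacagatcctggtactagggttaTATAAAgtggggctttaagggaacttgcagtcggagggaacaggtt
Mmp10: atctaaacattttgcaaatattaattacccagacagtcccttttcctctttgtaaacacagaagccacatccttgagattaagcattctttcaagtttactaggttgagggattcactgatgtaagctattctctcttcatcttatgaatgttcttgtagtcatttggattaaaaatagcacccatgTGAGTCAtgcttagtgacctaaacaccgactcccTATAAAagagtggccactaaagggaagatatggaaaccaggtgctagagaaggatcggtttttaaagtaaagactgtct
Mmp8: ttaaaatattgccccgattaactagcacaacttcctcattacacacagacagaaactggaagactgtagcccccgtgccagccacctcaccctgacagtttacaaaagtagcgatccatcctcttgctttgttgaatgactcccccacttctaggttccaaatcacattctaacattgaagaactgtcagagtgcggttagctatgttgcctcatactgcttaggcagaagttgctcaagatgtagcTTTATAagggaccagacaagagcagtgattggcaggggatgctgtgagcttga

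TGANTCA was found in the windows of Mmp13 (from position -35), Mmp12 (-44) and Mmp10 (-63), counted from the start site, and in no other of the 11 windows of 10 members. These letters occur in 7.81% of 32851 promoter windows of the table. TATAAA followed the AP-1 match in the same windows, at -16 in Mmp13, at 5 in Mmp12 (just past the annotated start) and at -29 in Mmp10. In Mmp8 it was on the opposite strand at -3, and 13.6% of all windows hold it. The ETS motif AGGAAG was in 7 of the 11 windows and in 35.4% of all windows, with 2 matches in Mmp13, 3 in Timp1 and none in Mmp10 or Adam8. The other window of Mmp12, upstream, held 1 AGGAAG match and neither of the other motifs. A match describes the letters alone, and binding was not measured.

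In tumour lung, 8 of the 12 genes chosen were at least 2-fold above wild type lung. A gene entered a comparison if its brighter array reached that array's 50th percentile, which left 11 of the 12 genes here. Of those, 8 were at least 2-fold higher (Mmp8, Mmp10, Mmp12, Mmp13, Mmp14, Mmp19, Timp1 and Adam8), none was at least 2-fold lower, and Mmp9, Mmp15 and Timp3 were under 2-fold. By the same rule 37.5% of named genes were higher and 38.2% lower, as were 9.25% and 10.4% of all probe sets. The median log2 difference was 2.85 over the 11 genes and -0.11 over the named genes that passed. Timp4 was too dim on both arrays to enter.

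In depleted lung against tumour lung, 7 of 12 genes were at least 2-fold lower (Mmp10, Mmp12, Mmp13, Mmp14, Mmp19, Timp1 and Adam8). Timp4 was higher, and Mmp8, Mmp9, Mmp15 and Timp3 were under 2-fold. The shares among named genes were 27.4% lower and 29.5% higher, and among all probe sets 7.26% and 7.68%. The median log2 difference was -1.95 over the members and 0.25 over named genes. This comparison shares the tumour array with the one above, so its values are not independent of it.

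In depleted lung against wild type lung, 9 of the 12 genes passed the level filter. Of these, 5 were at least 2-fold higher (Mmp8, Mmp9, Mmp12, Timp4 and Adam8), Mmp15 was lower, and Mmp14, Timp1 and Timp3 were under 2-fold. Mmp10, Mmp13 and Mmp19 were too dim on both arrays. Shares among named genes were 24.6% higher and 20.9% lower, and among all probe sets 6.24% and 6.34%. The median log2 difference was 1.07 over the 9 members and -0.065 over named genes.

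**Figure D1:**
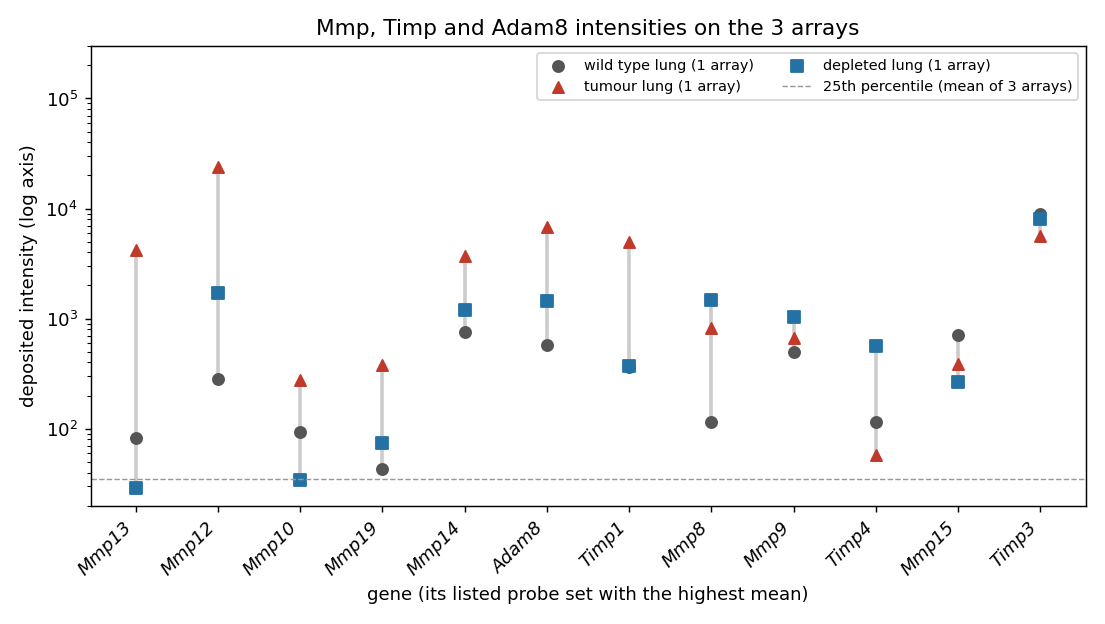
Deposited intensity (log axis) of the 12 genes on the 3 arrays, 1 point per array, with a grey bar from the lowest to the highest and a dashed line at the mean of the arrays' 25th percentiles. From Mmp13 to Timp1 the tumour array is the highest point, for Mmp8, Mmp9 and Timp4 the depleted array is, and for Mmp15 and Timp3 the wild type array is.

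Mmp12, the macrophage elastase, had an intensity of 282 in wild type lung, 23623 in tumour lung and 1704 in depleted lung. The tumour value stood 83.9-fold above wild type (log2 6.39), and no other member had a larger difference in that comparison. In depleted lung it was 13.9-fold below tumour lung and still 6.05-fold above wild type. The authors' deposited table gives 88.3-fold, 11.9-fold and 7.43-fold for the same pairs. Mmp10, a stromelysin made by keratinocytes at wound edges, read 94.0, 275 and 34.2 in the same order. It was 2.93-fold above wild type in tumour lung and at least 7.86-fold lower in depleted lung than in tumour lung, against 2.21-fold and 2.45-fold in the authors' deposited table. Its depleted value lay below the array's 25th percentile and was raised to that percentile, which makes the fold a lower bound ("at least").

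Mmp13, the main interstitial collagenase of rodents, read 82.6 in wild type lung, 4244 in tumour lung and 28.7 in depleted lung. It was bright on the tumour array alone, 51.4-fold above wild type (log2 5.68) and at least 121-fold above depleted lung. In the authors' deposited table these pairs are 48.8-fold and 47.9-fold apart, and depleted and wild type lung 1.02-fold. Mmp8, the neutrophil collagenase, ran differently, with 115, 830 and 1461. It was 7.19-fold higher in tumour lung and 12.7-fold higher in depleted lung than in wild type lung, and depleted lung was 1.76-fold above tumour lung. Of these 2 collagenases, tumour lung had the highest value of Mmp13 and depleted lung that of Mmp8.

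Mmp9, the gelatinase stored in neutrophils, read 494, 661 and 1035 with its brighter probe set and 113, 154 and 286 with the other. Both probe sets gave the same order, with depleted lung highest. The brighter one was 1.34-fold above wild type in tumour lung and 2.10-fold above it in depleted lung. With the 3 arrays scaled to equal medians of the hybridization controls, the log2 difference of 1.07 between depleted and wild type lung became -0.20.

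Mmp14, a membrane-type protease that activates pro-Mmp2, read 750, 3724 and 1186, and its other probe set 89.2, 551 and 116. Tumour lung was highest with both, 4.97-fold above wild type and 3.14-fold above depleted lung for the brighter one. Mmp15, the related second membrane-type enzyme, went the other way, with 709 in wild type lung, 388 in tumour lung and 264 in depleted lung. It was 2.69-fold lower in depleted lung than in wild type lung, and its other probe set read 725, 340 and 276. Tumour lung was 1.83-fold under wild type with the first probe set and 2.14-fold with the other. Mmp19, a secreted protease, read 43.1, 379 and 74.0. Tumour lung was 8.78-fold above wild type and 5.11-fold above depleted lung, against 2.47-fold and 2.22-fold in the authors' deposited table. Its other probe set (36.8, 340 and 71.2) kept the order, with 9.24-fold and 4.78-fold in the intensities and 7.29-fold and 4.41-fold in the authors' deposited table.

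Adam8 read 572 in wild type lung, 6777 in tumour lung and 1431 in depleted lung. It was 11.8-fold above wild type in tumour lung, 4.74-fold lower in depleted lung than in tumour lung, and 2.50-fold above wild type after depletion. The 3 arrays kept the order of Mmp12, with smaller differences. With scaling to the hybridization controls, its log2 difference between depleted and wild type lung was 0.050 in place of 1.32.

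The 3 inhibitor genes each had a different array on top. Timp1, the secreted inhibitor induced in inflammation and repair, read 367, 4997 and 373, so it was high in tumour lung alone. It was 13.6-fold above wild type there, and depleted and wild type lung were 1.02-fold apart. Timp3, which is bound to the matrix, was bright everywhere, with 8954, 5625 and 7971, and its other probe set read 8385, 4816 and 7232. It was lowest in tumour lung, 1.59-fold under wild type in the intensities and 2.28-fold in the authors' deposited table, and its log2 difference of -0.67 was -1.01 after quantile normalization. Timp4 read 114, 58.1 and 566, and 73.4, 50.1 and 283 with its other probe set. Depleted lung was highest with both, 9.74-fold above tumour lung and 4.98-fold above wild type for the brighter one. In the authors' deposited table these are 5.93-fold and 5.34-fold. The other probe set was 5.64-fold and 3.85-fold higher in the intensities, and only 2.05-fold and 1.55-fold higher in the authors' deposited table.

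Scaling between arrays touches the comparisons with wild type lung. The hybridization controls, bacterial and phage transcripts added to every sample, were higher on the tumour and depleted arrays than on the wild type one, with median log2 differences of 1.00 and 1.18. The median intensities of the arrays were 128, 124 and 127. Scaled to equal control medians, the median of all probe sets was -1.16 for tumour and -1.30 for depleted against wild type lung. This scaling takes 1.11 from each log2 difference of tumour against wild type lung and 1.27 from each of depleted against wild type lung, dim values aside. Then 7 genes were higher and 2 lower in tumour lung, and 3 higher and 3 lower in depleted lung, both against wild type. Of the 22 member differences past 2-fold, 19 stayed past it in the same direction. The 3 that did not were Mmp10 in tumour lung (log2 0.44) and Mmp9 and Adam8 in depleted lung, all against wild type. The 3′ to 5′ ratio of the actin controls was 1.30, 1.33 and 1.41, and that of the Gapdh controls 1.06, 0.794 and 0.974.

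**Figure D2:**
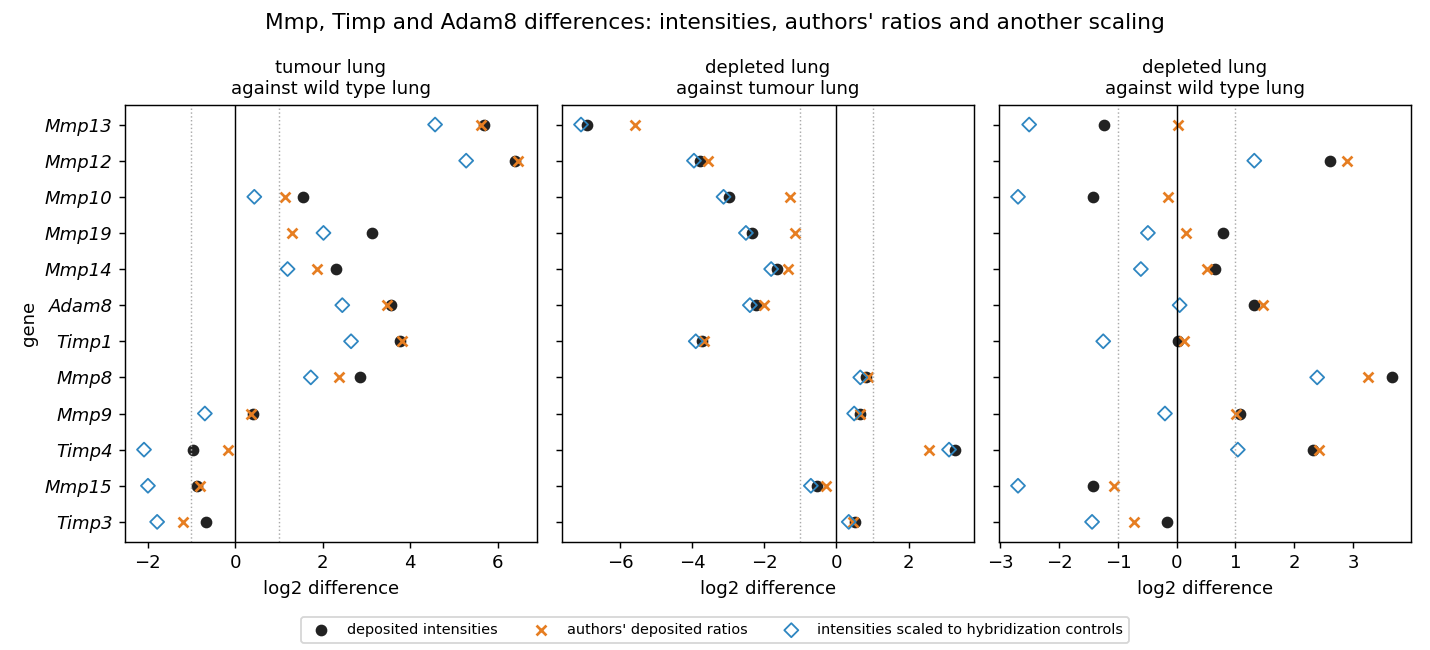
Log2 difference of each gene in the 3 comparisons (dotted lines at 2-fold), from the deposited intensities (values under the 25th percentile set to it), from the authors' deposited ratios, and from intensities scaled to the hybridization controls. Mmp12 is right of the 2-fold line against wild type lung in all 3 versions in both mutant lungs, while Adam8 in depleted lung falls to 0.050 with control scaling.

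Among the other metzincin proteases, 5 of 30 listed ADAM and ADAMTS genes were named. In tumour lung 3 of these 5 were at least 2-fold above wild type and none was lower (median log2 difference 1.51), where 37.5% of named genes were higher. In depleted lung 4 of 5 were lower than in tumour lung, with a median of -2.12, where 27.4% of named genes were lower. Adamts4, an aggrecanase, read 372 in tumour lung against 22.1 in wild type and 14.9 in depleted lung, at least 10.7-fold and at least 10.6-fold apart, against 2.64-fold and 2.78-fold in the authors' deposited table. Adamdec1, a protease-like gene of macrophages and dendritic cells, stayed high in depleted lung, with 226 in wild type, 730 in tumour and 901 in depleted lung. Adamts1 and Adamts2, which trim proteoglycans and procollagen, were 3.17-fold and 4.51-fold lower in depleted than in tumour lung.

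Plasminogen activators, cathepsins and their inhibitors, which act beside the metalloproteinases in matrix breakdown, had 19 of 33 listed genes named. Of 17 bright enough to enter, 16 were at least 2-fold above wild type in tumour lung and 1 was below it, and their median was 1.95 in log2 (37.5% of named genes were higher). Against tumour lung, 8 of 18 were lower in depleted lung and 2 higher, with a median of -0.90, beside 27.4% and 29.5% of named genes. Ctsk, a collagen-cutting cathepsin, read 716 in wild type, 12476 in tumour and 5223 in depleted lung, so it stayed 7.30-fold above wild type. Cst6, an epithelial cystatin, was at least 113-fold above wild type in tumour lung, against 83.6-fold in the authors' deposited table. Serpinb2 and Serpine2, inhibitors of plasminogen activators, were 7.06-fold and 5.60-fold lower in depleted than in tumour lung.

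Of the 30 listed substrates and matrix ligands, 24 were named. In tumour lung 13 of 24 were at least 2-fold above wild type and 1 below it (median log2 difference 1.13), against 37.5% and 38.2% of named genes. Scaling to the hybridization controls takes 1.11 from each of these differences, nearly all of this median. List counts were not recomputed with that scaling. In depleted lung 18 of 24 were lower than in tumour lung and none was higher (median -1.92), against 27.4% and 29.5%. Col1a1, a chain of fibrillar collagen, read 488 in wild type, 2870 in tumour and 299 in depleted lung. Tnc, a matrix glycoprotein of wounds and tumour stroma, read 405, 3984 and 147. Against wild type lung 10 of 23 were lower in depleted lung and 2 were higher (median -0.91), against 20.9% and 24.6% of named genes, with Col12a1 8.41-fold and Col6a3 3.87-fold lower.

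Of 36 listed genes known to induce or transcribe metalloproteinases, 20 were named. In this list 11 were at least 2-fold above wild type in tumour lung and 1 below it (median log2 difference 1.03), where 37.5% and 38.2% of named genes were. That median is smaller than the 1.11 that control scaling takes from these differences. In depleted lung 7 of 20 were lower than in tumour lung and 5 higher (median -0.17), which is near the 27.4% and 29.5% of named genes. Il6 and the epidermal growth factor receptor ligand Ereg were highest in tumour lung, Ereg with 564 against 25.6 in wild type and 28.1 in depleted lung. Il1b, an inflammatory cytokine, was highest in depleted lung, with 467, 770 and 3260 in the order of the members above.

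The genes nearest to Mmp12, Mmp13 and Adam8 in shape were found by the distance between log2 intensities centred on each gene's own mean over the 3 arrays, among 1978 named genes with at least 1 array above the 75th percentile. With 3 arrays a small distance is easily reached. Dim values were not raised for these distances. For Mmp12 they included Ccl7 (distance 0.50 log2 units), Trem2 (0.67), Gpr176 (0.78) and Bex1 (0.82). In wild type lung Ccl7 (26.3) and Gpr176 (16.2) lay below the 25th percentile (34.8), so their distances rest partly on dim values. Ccl7 is a monocyte attractant and Trem2 a lipid receptor of macrophages. For Mmp13, which was too dim to compare between wild type and depleted lung, they were Cnfn (0.30), Krt5 (0.60), Gjb2 (0.63), Klk6 (0.70) and Xist (0.74). In depleted lung Cnfn (24.2), Klk6 (12.8) and Mmp13 itself lay below the 25th percentile (35.0). Cnfn and Krt5 are genes of squamous epithelium, and Xist is transcribed from the inactive X chromosome of females. For Adam8 they included Il1f9 (0.031), Hk3 (0.10), Rnf128 (0.17) and Slc37a2 (0.21).

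Xist read 188 in wild type, 15608 in tumour and 133 in depleted lung, so the tumour mouse differed from the others in this sex-linked gene, and sex cannot be told apart from the tumour in these arrays. Timp1 lies on the X chromosome. The part of sex in its difference was not tested.

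Markers of several cell types moved with the members. In RNA of mixed tissue, fewer cells of a type and less RNA per cell cannot be told apart. The tumour sample was carcinoma with the tissue beside it, so the choice of tissue cannot be told apart from these either. The 12 named monocyte and macrophage genes of 19 listed had a summed intensity of 8134 in wild type, 88879 in tumour and 28764 in depleted lung, the same order as Mmp12 and Adam8. All 12 were at least 2-fold above wild type in tumour lung, 10 of 12 were lower in depleted than in tumour lung, and none of the 12 was below the 25th percentile on any array. Of named genes 37.5% and 27.4% differed in these directions. Cd163, a scavenger receptor of macrophages, read 2266 in tumour and 101 in depleted lung, while Cd68, a lysosomal macrophage gene, read 14106 and 5553. The summed level of 7 named alveolar macrophage genes of 15 was 23013, 55360 and 38028, again the order of Mmp12 and Adam8. The depleted sum was above the wild type sum by less than the 1.27 log2 units that control scaling takes. With that scaling it falls below wild type lung. Most of the sum came from Fabp5 and Ctsd on each array. These 7 genes were split in depleted against tumour lung, with 3 higher, 3 lower and 1 under 2-fold. Marco, a scavenger receptor of alveolar macrophages, read 1289 in depleted and 12.1 in tumour lung, at least 36.3-fold apart, and Krt79 was 10.6-fold higher in depleted lung, while Itgax was 2.97-fold and Fabp5 2.38-fold lower there.

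The 12 named neutrophil genes of 18 summed to 8332, 63805 and 94124, the order of Mmp8 and Mmp9. Of those that passed, 9 of 11 were at least 2-fold higher in depleted than in wild type lung and 1 was lower, and 9 of 12 were higher in depleted than in tumour lung and 2 lower. The shares of named genes higher were 24.6% and 29.5%. The calprotectin gene S100a8 read 2272, 16086 and 37994, and most of each sum came from S100a8, S100a9 and Lcn2. The 2 genes lower in depleted than in tumour lung were Stfa3 (83.0 against 3781) and Ltf (601 against 1201). Lcn2 was highest in tumour lung, with 25803 against 18055 in depleted lung. Below the 25th percentile were 2 of the 12 in wild type, 1 in tumour and none in depleted lung.

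The 20 named squamous epithelium genes of 21 summed to 2244, 86344 and 1975, highest in tumour lung. Mmp10, Mmp12, Mmp13, Mmp14, Mmp19, Timp1 and Adam8 were also highest there. Of 19 list genes that passed, 18 were at least 2-fold above wild type in tumour lung, against 37.5% of named genes. Sox2 was 4.30-fold lower. Of the 20 genes, 12 in wild type and 11 in depleted lung lay below the 25th percentile, and none in tumour lung. The 12 named fibroblast and matrix genes of 16 summed to 54182, 97877 and 34322, highest in tumour lung as were those members. The tumour sum was above the wild type sum by less than the 1.11 log2 units that control scaling takes. With that scaling wild type lung has the highest sum. Most of the tumour sum came from Fn1, Col3a1 and Col1a2. In tumour lung 5 of 12 were at least 2-fold above wild type, against 37.5% of named genes. Dcn was 3.63-fold lower, and 6 were under 2-fold. In depleted lung 9 of 12 were lower than in tumour lung, against 27.4% of named genes. Of the 12, 11 are also among the 24 matrix substrates. Endothelial genes (10 of 12 named) went the other way, with sums of 60462, 12369 and 47484, and Timp3 was likewise lowest in tumour lung. T cell genes (10 of 14) summed to 3200, 12050 and 17779, like the neutrophil genes in the order of Mmp8 and Mmp9. B and plasma cell genes (7 of 11) summed to 5140, 27652 and 23497, the order of Mmp12 and Adam8. Normal lung epithelium was represented by 3 of 12 alveolar and 5 of 10 ciliated and club cell genes, whose sums of 28736, 14879 and 28607 and of 46107, 12894 and 46099 were lowest in tumour lung. The part of any of these cell types in the member differences was not tested.

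**Figure D3:**
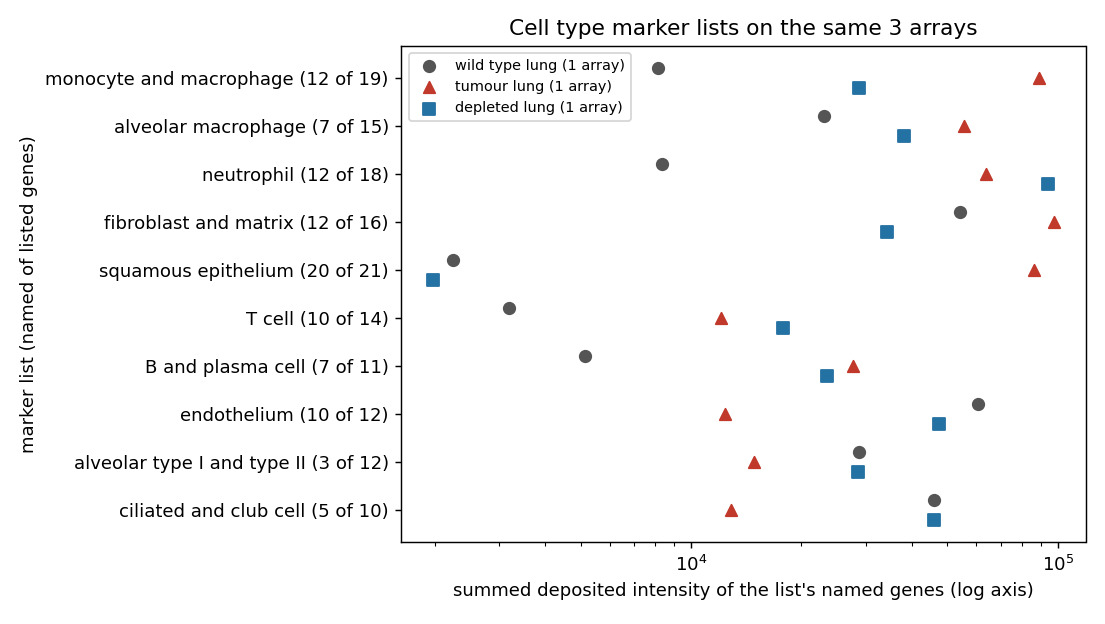
Summed deposited intensity (log axis) of the named genes of each cell type marker list on the 3 arrays, 1 point per array, with named of listed genes in brackets. Macrophage and squamous genes are highest on the tumour array, neutrophil genes on the depleted array, and endothelial genes on the wild type array.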

How the data were processed

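Biotin-labelled lung RNA of 3 mice was hybridised to 1 array each, per the labels' protocols. The value table deposited by the authors holds a linear intensity for 45101 probe sets (64 controls). Their summarisation and scaling are not given in the sources used here. Per the submitters' processing notes Partek was used (no version). In the authors' 3 deposited tables, linear ratios compare the samples in pairs, per the file headers. Across the 3858 listed probe sets with 1 symbol, the log2 of these ratios correlated with that of the intensities at 0.94, 0.93 and 0.90. Symbols of genes other than the members were updated through the RefSeq table of GRCm38.p6 (89 kept the file's name).

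Where several probe sets of a gene were listed, the one with the highest mean log2 intensity was used, and 6 of the 12 members had 2. The level filter was the 50th percentile of the brighter array, values below the 25th percentile were raised to it in a fold, and counts are at 2-fold. No p-value was computed, since precision is limited by the number of arrays. All members are named, and up to 4 genes with the largest differences per pathway list and comparison. Cd163, Cd68, S100a8, Marco, Krt79, Itgax, Fabp5 and Ctsd were singled out after their values were seen. The same holds for S100a9, Lcn2, Stfa3, Ltf, Sox2, Dcn, Fn1, Col3a1 and Col1a2 among the marker genes. Of the genes nearest in shape to Mmp12 and Adam8, 1 each is not reported here. Members, lists and rules were chosen with earlier results of these data known. The steps were tested on simulated data. Alternatives were other scalings, probe set rules, level filters, thresholds and the authors' ratios. Python 3.11.15, numpy 2.4.6, pandas 2.3.3 and matplotlib 3.10.9 were used.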

Additional observations from a re-analysis of the deposited data

How the results depend on the processing

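Equal array medians, a gene's median in place of its brightest probe set, dropping probe sets ending in _s_at or _x_at, and dim values left unraised kept all 22 differences past 2-fold, as did quantile normalization and the authors' deposited ratios. The count of genes lower in tumour than in wild type lung was 0 in the report. This count was 1 with quantile normalization and 1 with the authors' ratios (Timp3 in both). It was 1 counting probe sets (Mmp15), 2 at 1.5-fold and 2 with scaling to the hybridization controls. The count higher in depleted than in tumour lung, 1 in the report, was 3 at 1.5-fold and 2 counting probe sets. Against wild type lung, the count higher in depleted lung, 5 in the report, was 3 at 3-fold and 3 with control scaling. The count lower, 1 in the report, was 0 at 3-fold, 2 counting probe sets, 3 with no level filter and 3 with control scaling. Control scaling lowers both mutant arrays by a fixed amount, and it turned Mmp9 in depleted against wild type lung to -0.20. With the authors' ratios 9 of 36 member values moved by over 1.5-fold, among them Mmp19 and Mmp10, and the cause was not tested. Of 54 member values 2 lay below the 25th percentile, those of Mmp10 and Mmp13 in depleted lung, so their folds are bounds within the deposited intensities. No paired analysis was possible because each group has 1 sample.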
